A study of Bos taurus with 9 samples.

Results

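Secreted host-defense proteins of the uterine gland were followed through 7 genes, RNASE1, RNASE4, PIGR, WFDC2, LCN2, SLPI and CLU, out of the 20679 genes counted in 9 bovine libraries. Rows were taken by gene symbol, and all 7 were found. The genes were picked with their values in these libraries already known, so their levels and fold changes are given as descriptions, without p-values. In each group, fragments of uterine glands (Bos taurus) were kept for 5 days in Matrigel, a basement membrane gel, in DMEM/F12 medium that contained serum albumin, insulin, transferrin, selenite and ascorbic acid. The control cultures (CONT_M in the labels) received no EGF and formed cysts (CYST, n = 3). Cultures with EGF in Matrigel alone (EGF_M) formed uterine gland-like structures (MAT, n = 3), as did those with EGF in Matrigel to which type I collagen was added (EGF_MCOL; MAT + COL, n = 3). The uteri came from an abattoir and many fragments were pooled into a tube, so a library is a mixture of structures. The labels give no animal or its age, and do not say that the 3 libraries of a group came from separate animals, so the spread reported here is the spread between these libraries. The paper describes the MAT and MAT + COL libraries as clustering mainly by individual, but the labels do not tie replicate numbers to individuals.

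Glands of the endometrium secrete proteins into the uterine lumen that protect the mucosa and nourish the embryo. Secreted ribonucleases of the RNase A superfamily cleave RNA outside the cell and several kill microbes. Whey acidic protein (WAP) domain proteins such as SLPI and WFDC2 inhibit serine proteases, including those that neutrophils release, and are found in the mucus of the female tract. LCN2 starves bacteria of iron by binding their siderophores, PIGR carries polymeric immunoglobulins across the epithelium and is shed with them as secretory component, and clusterin (CLU) is an extracellular chaperone that also restrains the terminal complement pathway.

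The sample titles name bovine uterine gland, and the paper describes these glands as epithelia of the endometrium. All 8 epithelial markers were detected in every group, and their summed TPM (a read level per transcript length, scaled to the library) ranged from 20170 to 22590 in CYST, from 31870 to 49303 in MAT and from 32389 to 43693 in MAT + COL. Most of each sum was KRT8, KRT19 and KRT7. The ranges of KRT7, KRT18, CLDN4 and ESRP1 overlapped between CYST and both EGF groups. Of the 5 uterine gland markers found, MUC1 and PAX8 were present, FOXA2 lay between 1.31 and 12.4 TPM, SOX17 stayed below 1 TPM and PAEP was at 0 in all 9 libraries. Stromal RNA was also present: the 8 stromal markers summed to 1987 to 4486 TPM in CYST, 738 to 2946 in MAT and 1870 to 3439 in MAT + COL, led by COL3A1 and DCN. Markers of endothelium (18.7 to 32.0 TPM in CYST, 16.3 to 35.9 in MAT, 23.3 to 40.2 in MAT + COL) and of T and B cells (1.19 to 1.71, 1.38 to 5.87 and 1.67 to 4.61 TPM) were low, as were those of macrophages (20.4 to 48.3 TPM over all libraries), plasma cells (at most 31.4), smooth muscle (24.3 to 83.8) and ciliated cells (6.88 to 24.5). The 7 neutrophil markers summed to 97.9 to 981 TPM in CYST, 229 to 3775 in MAT and 235 to 2327 in MAT + COL, nearly all of it S100A12 and S100A8. No marker was called without the replicate block; with it, EPCAM, KRT8, KRT19, MUC1 and S100A12 rose and DCN fell in MAT against CYST, and KRT19 and S100A12 rose in MAT + COL, and their part in the levels given here was not tested. In bulk RNA, fewer cells of a type and less RNA per cell cannot be told apart. Total counts per library ranged from 6568968 to 17948600.

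The 7 genes differed widely in level. In CYST their mean TPM fell from CLU (3011 ± 425, SD, n = 3) through WFDC2 (1451 ± 651) and PIGR (86.8 ± 25.5) to RNASE4 (24.5 ± 17.3), RNASE1 (21.6 ± 10.8), SLPI (13.2 ± 21.3) and LCN2 (9.04 ± 7.40). The first 3 were separated by library ranges that did not overlap, whereas the ranges of the last 4 overlapped from each gene to the next. In MAT the order began with WFDC2 (2322 ± 1107) and CLU (1762 ± 508), whose ranges overlapped, followed by PIGR (46.4 ± 23.6), RNASE4 (10.1 ± 5.32), SLPI (5.95 ± 4.70), LCN2 (2.53 ± 3.32) and RNASE1 (0.151 ± 0.135). In MAT + COL the order was the same, from WFDC2 (1993 ± 757) and CLU (1812 ± 600) to PIGR (72.7 ± 9.79), RNASE4 (11.6 ± 3.70), SLPI (2.80 ± 2.09), LCN2 (1.32 ± 1.89) and RNASE1 (0.466 ± 0.573). CLU and WFDC2 were thus abundant transcripts of these cultures, together 0.227% to 0.552% of all TPM in a library. By mean, RNASE1 came before SLPI and LCN2 in cysts, with overlapping ranges. It came last in both EGF groups, although its range overlapped that of LCN2 in MAT + COL. TPM is a value per length, so levels can be compared between genes on this scale where the gene models hold. The long LCN2 model and the overlap of RNASE4 with ANG and ANG2, described below, limit this for LCN2 and RNASE4.

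**Figure D1:**
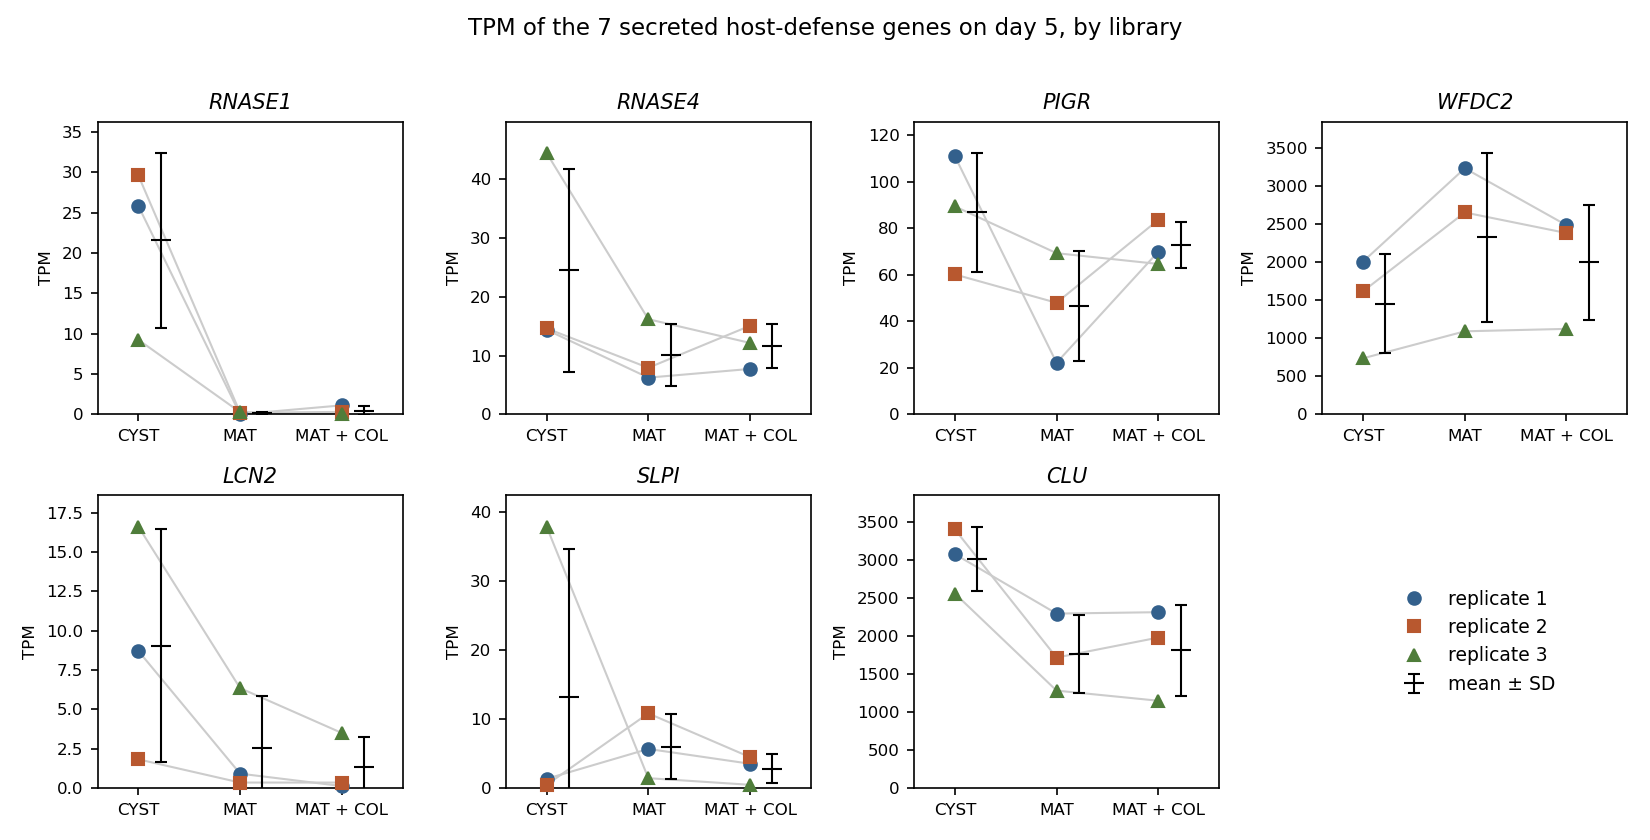
Level of the 7 genes in each library (y axes: TPM, from 0, scaled per gene; x axes: the CYST, MAT and MAT + COL groups). Symbols give the replicate number, grey lines join libraries with the same number, and black bars give the group mean ± SD (n = 3), cut off at 0 where the SD exceeds the mean. RNASE1 and CLU are lower in every EGF library than in any cyst library, WFDC2 is higher in each EGF library than in the cyst library of the same number, and SLPI in cysts is carried by replicate 3.

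RNASE1, the secreted pancreatic-type ribonuclease that degrades extracellular RNA, stood at 25.8, 29.6 and 9.24 TPM in CYST replicates 1, 2 and 3, from 128, 285 and 59 counts. In MAT it stood at 0, 0.194 and 0.259 TPM, from 0, 2 and 2 counts. In MAT + COL it stood at 1.11, 0.293 and 0 TPM, from 11, 3 and 0 counts. Each of the 6 EGF libraries was lower than each of the 3 cyst libraries, and CYST replicate 3 was the lowest of the cysts. Summed over the libraries of a group and set against total counts, RNASE1 was 125-fold higher in CYST than in MAT (95% interval 48.7 to 462) and 50.2-fold higher than in MAT + COL (29.6 to 92.5). These intervals cover counting error only. The fitted log2 fold change was -6.74 ± 0.72 (SE; 95% interval -8.40 to -5.08) for MAT against CYST and -5.54 ± 0.94 (-7.72 to -3.36) for MAT + COL against CYST. The gene lies on chromosome 10 of ARS-UCD2.0, from 26355803 to 26357761 on the plus strand, and RefSeq lists it there as LOC282340. Its close copies BRB (brain ribonuclease) and SRN (seminal ribonuclease) could share reads with it. BRB had 2 counts over the cyst libraries, 0 over MAT and 13 over MAT + COL, 12 of them in replicate 2, and SRN had 0 in each library. With the counts of the 3 genes summed, CYST was 126-fold higher than MAT (48.9 to 464) and 26.1-fold higher than MAT + COL (17.7 to 40.1). Endothelial cells are a known source of RNASE1 in many tissues; their 8 markers summed to 18.7 to 32.0 TPM in CYST, 16.3 to 35.9 in MAT and 23.3 to 40.2 in MAT + COL, and their part in the level of RNASE1 was not tested.

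RNASE4, a secreted ribonuclease with a strong preference for uridine, stood at 14.4, 14.6 and 44.5 TPM in CYST (77, 152 and 307 counts), at 6.24, 7.91 and 16.2 TPM in MAT (26, 88 and 135 counts) and at 7.72, 15.1 and 12.1 TPM in MAT + COL (83, 167 and 127 counts). The ranges of CYST and of both EGF groups overlapped, and CYST replicate 3 was the highest library. Within each replicate number, MAT was lower than CYST by factors of 2.30, 1.85 and 2.75, whereas MAT + COL was lower in 2 of 3 numbers and level in replicate 2. The log2 fold change was -1.35 ± 0.64 (-2.83 to 0.12) for MAT and -1.21 ± 0.60 (-2.60 to 0.18) for MAT + COL, both against CYST, and -1.20 ± 0.31 and -0.98 ± 0.45 with the replicate number as a block. Without CYST replicate 3 the values were -0.40 ± 0.51 and -0.26 ± 0.42. That library also had the highest stromal sum, 4486 TPM, and the part of stromal cells in the level of RNASE4 was not tested.

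Both ribonucleases belong to a cluster on chromosome 10. RNASE4 (26391103 to 26392497, minus strand) starts 33342 bases after the end of RNASE1, and ANG, which encodes angiogenin, a ribonuclease that induces vessel growth, starts 3937 bases beyond RNASE4. RefSeq draws RNASE4, ANG and ANG2 as overlapping genes that reach upstream to about the same place (26412980, 26412966 and 26413011), so how reads of shared exons were assigned to them is uncertain. ANG stood at 12.9, 6.86 and 16.7 TPM in CYST, 2.36, 0.885 and 5.90 in MAT and 2.06, 5.32 and 4.47 in MAT + COL, so that every EGF library was lower than every cyst library. The test did not call it (log2 fold change -2.02 ± 0.83, edgeR adjusted p = 0.223, and -1.70 ± 0.66, adjusted p = 0.191; 0.0706 and 0.192 with the block). ANG2 had at most 15 counts in a library and ranged from 0.518 to 2.93 TPM in CYST, from 0.242 to 0.646 in MAT and from 0 to 0.375 in MAT + COL. RNASE12 (9.02 to 20.9 TPM), RNASE13 (1.25 to 5.97 TPM) and RNASE10 (0.171 to 1.92 TPM) overlapped between all groups and were not called, while RNASE11, RNASE6 and RNASE2 reached at most 10, 5 and 1 counts in a library. RNH1, the cytosolic inhibitor that binds RNase A proteins with great affinity, lay between 288 and 401 TPM, with log2 fold changes of -0.09 ± 0.18 and -0.17 ± 0.17. PLXNB2, the receptor for angiogenin, ranged from 43.0 to 142 TPM and was not called either. In all, 12 of 20 listed relatives were found, 6 were tested in each comparison and none passed edgeR's adjusted p of 0.05 with or without the block or by DESeq2. At an unadjusted p below 0.05, edgeR counted 1 of them in each comparison of an EGF group with CYST and 0 between the EGF groups.

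**Figure D2:**
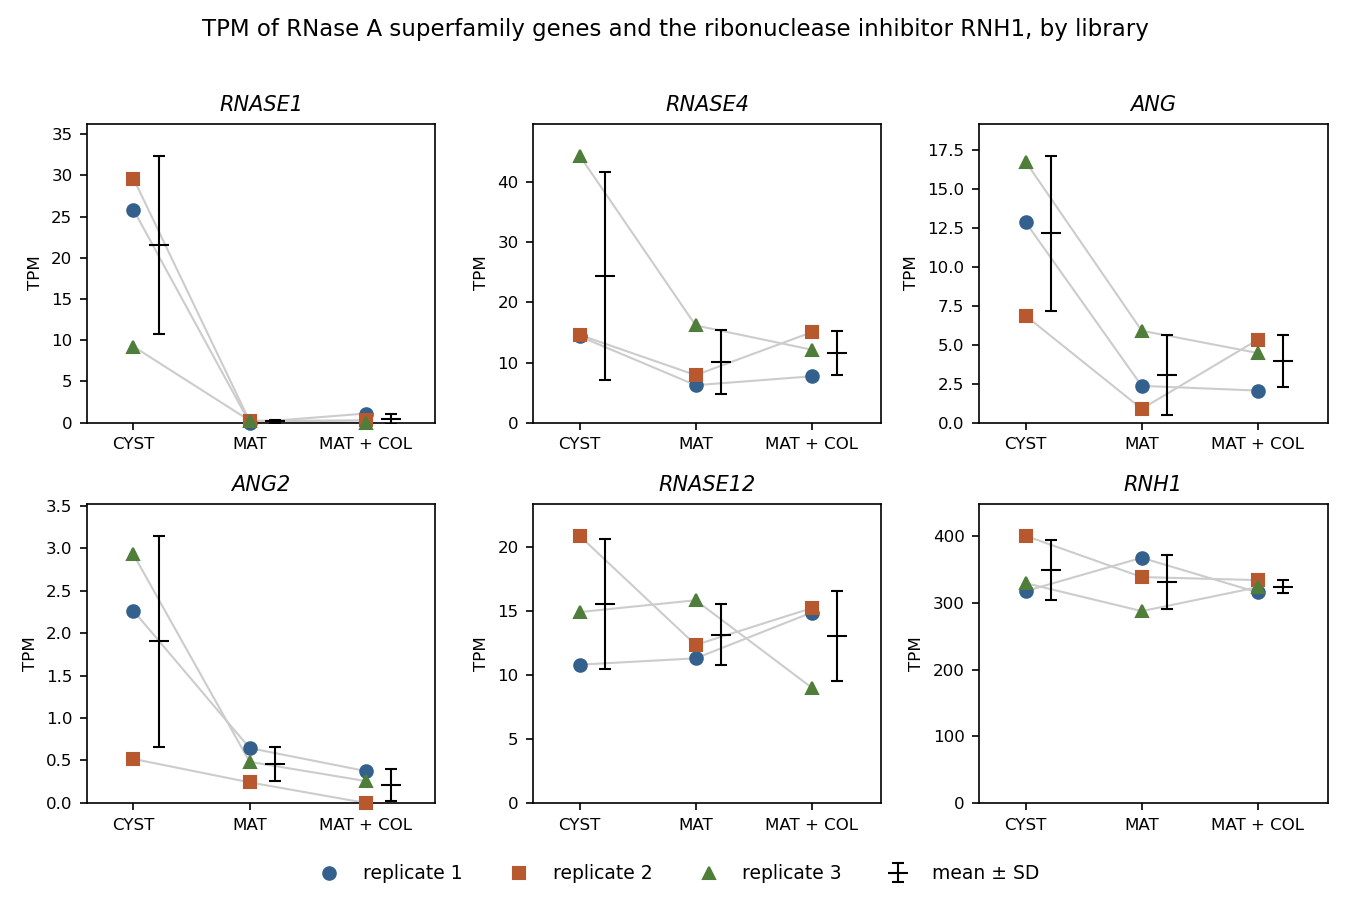
Level of RNase A superfamily genes and of RNH1 in each library (y axes: TPM, from 0, scaled per gene; x axes: the 3 groups). Symbols give replicate numbers, grey lines join equal numbers and black bars give mean ± SD (n = 3). RNASE1 falls to at most 1.11 TPM in the EGF libraries, RNASE4, ANG and ANG2 lie lower on average in both EGF groups than in CYST, and RNASE12 and RNH1 overlap between groups.

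WFDC2 (HE4), a WAP domain protease inhibitor of the epithelium of the female tract, stood at 2005, 1614 and 735 TPM in CYST (5859, 9162 and 2768 counts), at 3228, 2649 and 1089 TPM in MAT (7342, 16070 and 4955 counts) and at 2481, 2378 and 1121 TPM in MAT + COL (14561, 14390 and 6396 counts). The groups overlapped, and replicate 3 was the lowest library of each. Within replicate numbers, however, MAT was 1.61, 1.64 and 1.48 times as high as CYST and MAT + COL 1.24, 1.47 and 1.53 times. The log2 fold change against CYST was 0.70 ± 0.42 (-0.27 to 1.66) for MAT and 0.41 ± 0.36 (-0.43 to 1.26) for MAT + COL. With the block it was 0.64 ± 0.17 (0.25 to 1.04) and 0.43 ± 0.16 (0.04 to 0.81). In the fit on groups alone, WFDC2 was the only one of the 7 genes with a positive log2 fold change in both EGF groups. It lies on chromosome 13 from 74360835 to 74367976.

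SLPI, secretory leukocyte peptidase inhibitor, which blocks neutrophil elastase, lies on the same chromosome from 73616060 to 73618353 on the minus strand. In CYST it stood at 1.32, 0.452 and 37.8 TPM, from 3, 2 and 111 counts. It stood at 5.64, 10.8 and 1.41 TPM in MAT (10, 51 and 5 counts) and at 3.50, 4.45 and 0.450 TPM in MAT + COL (16, 21 and 2 counts). Replicate 3 was the highest library in CYST and the lowest in both EGF groups. The direction of the fitted difference depended on CYST replicate 3 and on the fit. With that library the log2 fold change was -1.34 ± 1.47 for MAT and -2.49 ± 1.57 for MAT + COL. Without it the values were 2.88 ± 1.25 and 1.74 ± 1.25. With the block and that library kept, they were 0.79 ± 1.94 and -0.18 ± 2.30. No direction is given for SLPI on these data.

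Of the other WAP domain genes, 12 of 16 listed were found and 4 were tested. WFDC18 stood at 7.41, 1.64 and 66.1 TPM in CYST, 10.9, 10.7 and 278 in MAT and 12.7, 23.3 and 179 in MAT + COL, higher in every EGF library than in the cyst library of the same number. It rose in MAT with the block (log2 fold change 1.76 ± 0.42, edgeR adjusted p = 0.0388), not without it (adjusted p = 0.548). Over the alternatives, the blocked fit among them, its adjusted p ran from 0.0388 to 0.673. Its sign turned without MAT replicate 3 (-1.42 ± 1.41). PI3 (elafin, an elastase inhibitor; 1.81 to 19.7 TPM), WFDC3 (13.4 to 23.3 TPM) and WFDC1 (0.944 to 4.91 TPM) were not called in any comparison. The deposited PI3 model spans a neighbouring RefSeq gene, LOC407163, as well as PI3, so its reads may come from both. WFIKKN1 reached at most 5 counts in a library and ANOS1 at most 1, and WFDC5, WFDC8, WFDC10A, WFDC11, WFDC13 and WFIKKN2 had no count in any library.

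PIGR, the polymeric immunoglobulin receptor, stood at 111, 60.1 and 89.4 TPM in CYST (1513, 1592 and 1571 counts). It stood at 22.1, 47.9 and 69.3 TPM in MAT (235, 1357 and 1471 counts) and at 69.9, 83.6 and 64.6 TPM in MAT + COL (1914, 2360 and 1721 counts). The MAT range overlapped that of CYST, and MAT replicate 1, the library with the lowest total, was the lowest of all. Within replicate numbers CYST was 5.01, 1.25 and 1.29 times as high as MAT. The log2 fold change was -0.91 ± 0.43 (-1.91 to 0.08) for MAT and -0.34 ± 0.27 (-0.96 to 0.28) for MAT + COL. With the block it was -0.98 ± 0.37 (-1.85 to -0.11) and -0.29 ± 0.28 (-0.96 to 0.38), and neither fit called PIGR. PIGR lies on chromosome 16 from 4713349 to 4730904 on the minus strand.

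The machinery that carries PIGR and its cargo across the cell was measured alongside. RAB25, an epithelial GTPase of the apical recycling pathway, stood at 132, 133 and 114 TPM in CYST, 309, 229 and 301 in MAT and 223, 229 and 262 in MAT + COL, higher in every EGF library than in every cyst library. It rose in MAT (log2 fold change 1.14 ± 0.18, edgeR adjusted p = 0.0367), and in MAT + COL with the block (0.85 ± 0.16, adjusted p = 0.0410; 0.0545 without it). Over the alternatives other than leaving out a library, its adjusted p ran from 3.04e-05 to 0.0552 in MAT and from 0.00116 to 0.0650 in MAT + COL. With a library left out, RAB25 was called in 1 of 6 fits in MAT and 0 of 6 in MAT + COL. The transport genes of highest level, MAL2 (124 to 368 TPM) and VPS35 (190 to 298 TPM), were not called. RAB25 was the only call among the 12 transport genes tested in MAT and, with the block, among the 13 in MAT + COL. JCHAIN, the chain that makes immunoglobulins polymeric and a marker of plasma cells, lay between 0.142 and 1.66 TPM.

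LCN2, the siderophore-binding lipocalin, stood at 8.70, 1.82 and 16.6 TPM in CYST (37, 15 and 91 counts), at 0.907, 0.340 and 6.34 TPM in MAT (3, 3 and 42 counts) and at 0.117, 0.341 and 3.49 TPM in MAT + COL (1, 3 and 29 counts). It was lower in each EGF library than in the cyst library of the same number, and replicate 3 was the highest library of each group, and the group ranges overlapped. The log2 fold change was -1.88 ± 1.18 (-4.59 to 0.84) for MAT and -2.85 ± 1.30 (-5.88 to 0.17) for MAT + COL. With the block it was -2.21 ± 0.61 (-3.62 to -0.79) and -3.27 ± 0.85 (-5.31 to -1.23). Neutrophils, which store LCN2 in their granules, were looked for by 7 markers. CSF3R, MPO, ELANE and FCGR3A stayed at or below 2.82 TPM in every library. S100A12 and S100A8, which epithelia also express, and S100A9 (1.37 to 15.6 TPM) were highest in replicate 3 of every group. The part of neutrophils in the level of LCN2 was not tested. The deposited LCN2 model (chromosome 11, 98765133 to 98785924) is 20792 bases long and begins 16706 bases before the RefSeq gene, which spans 4089 bases, so some of its counts may lie outside LCN2.

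Among the lipocalin relatives, a carrier and an uptake receptor changed. RBP4, which carries retinol, stood at 1402, 2104 and 916 TPM in CYST, 284, 374 and 429 in MAT and 324, 382 and 376 in MAT + COL, with no overlap between the cysts and either EGF group. It fell in MAT (log2 fold change -1.99 ± 0.28, edgeR adjusted p = 0.0269) and in MAT + COL (-2.05 ± 0.26, adjusted p = 0.0268). LRP2 (megalin), the endocytic receptor that takes up RBP4, LCN2 and clusterin, stood between 2.51 and 9.57 TPM in CYST and between 0.584 and 1.51 TPM in the 6 EGF libraries. It also fell in both (-2.90 ± 0.49, adjusted p = 0.0403; -2.54 ± 0.43, adjusted p = 0.0416). Over the alternatives other than leaving out a library, the adjusted p in MAT and in MAT + COL ran up to 0.0590 and 0.0555 for RBP4 and up to 0.118 and 0.148 for LRP2. With a library left out, RBP4 was called in 2 of 6 fits and LRP2 in 1 of 6 in each comparison. RBP4 and LRP2 were the only 2 calls among 7 tested of 12 lipocalin genes and receptors found. AMBP (72.4 to 404 TPM), PTGDS (11.9 to 172 TPM), APOD (2.72 to 19.3 TPM), APOM (4.48 to 8.25 TPM) and the LCN2 receptor SLC22A17 (0.809 to 3.52 TPM) were not called. LCN15 lay between 0 and 8.77 TPM, LCN8 reached at most 1 count in a library, and LCN9, LCN12 and PAEP had none.

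CLU, clusterin, stood at 3075, 3400 and 2557 TPM in CYST (21619, 46429 and 23173 counts), at 2293, 1714 and 1280 TPM in MAT (12547, 25025 and 14017 counts) and at 2312, 1978 and 1147 TPM in MAT + COL (32639, 28787 and 15745 counts). Each of the 6 EGF libraries was lower than each cyst library, the closest being CYST replicate 3 and MAT + COL replicate 1. By TPM it ranked 21st to 37th of all genes in CYST, 38th to 89th in MAT and 35th to 97th in MAT + COL. The log2 fold change was -0.78 ± 0.22 (-1.30 to -0.27) for MAT and -0.81 ± 0.24 (-1.36 to -0.26) for MAT + COL, a ratio of CYST to the EGF group of 1.72 and 1.75. With the block it was -0.82 ± 0.20 (-1.28 to -0.35) and -0.85 ± 0.21 (-1.34 to -0.35). CLU lies on chromosome 8 from 11177133 to 11194503.

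**Figure D3:**
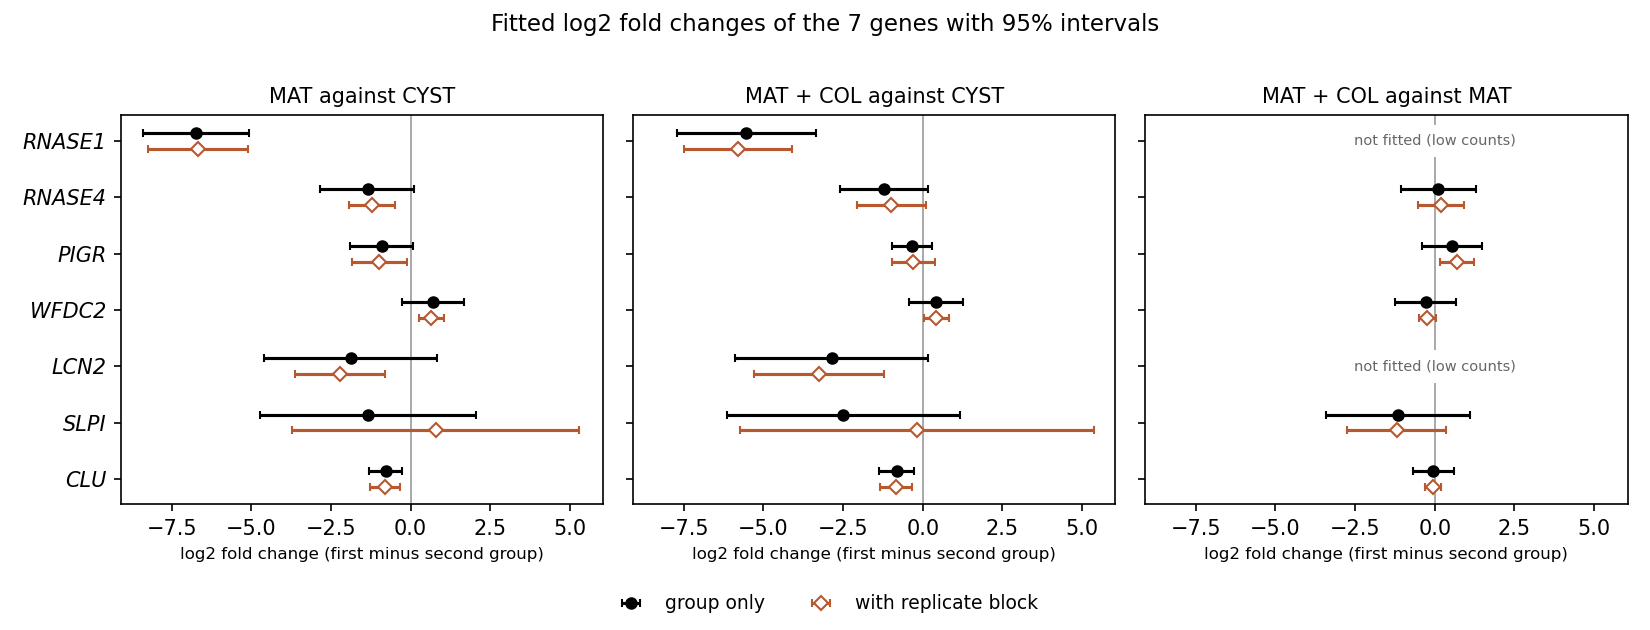
Fitted log2 fold changes of the 7 genes (x axes: log2 fold change, first minus second group; y axis: gene) for MAT against CYST, MAT + COL against CYST and MAT + COL against MAT. Filled circles come from the fit on groups alone and open diamonds from the fit with the replicate number as a block, with 95% intervals. The intervals of RNASE1 and CLU lie below 0 in both comparisons with CYST in both fits. With the block, those of LCN2 also lie below 0 and those of WFDC2 above 0 in both comparisons with CYST. Blocked intervals of RNASE4 and PIGR lie below 0 in MAT against CYST, and that of PIGR above 0 between the EGF groups. Those of SLPI are the widest and cross 0. RNASE1 and LCN2 had too few counts to be fitted between the EGF groups.

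Across the 7 genes, edgeR called 1 (RNASE1) in MAT against CYST, where it called 1.79% of the 12074 genes tested, and 1 (RNASE1) in MAT + COL against CYST, where it called 1.49% of 12509. With the block it called 3 (RNASE1, RNASE4 and CLU) in MAT, beside 10.6% of all genes, and 1 (RNASE1) in MAT + COL, beside 5.26%. RNASE1 and CLU were the 2 genes whose cyst libraries all lay above those of an EGF group; among all genes 11.8% did so against MAT and 10.3% against MAT + COL. Nothing is read from these counts, since the genes were picked on the same contrasts. The median log2 fold change of the 7 was -1.34 in MAT and -1.21 in MAT + COL, beside 0.01 and 0.04 for all genes tested. Both comparisons share the cyst libraries.

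The last comparison asked whether collagen I in the gel altered these genes in the presence of EGF. Against MAT, the log2 fold change in MAT + COL was 0.11 ± 0.50 for RNASE4 (95% interval -1.07 to 1.28), 0.54 ± 0.40 for PIGR (-0.40 to 1.48), -0.29 ± 0.41 for WFDC2 (-1.25 to 0.66), -1.16 ± 0.96 for SLPI (-3.43 to 1.10) and -0.05 ± 0.27 for CLU (-0.69 to 0.60). The ranges of the groups overlapped for all 7 genes, beside 3.57% of all genes whose ranges did not. These intervals leave room for changes of more than 2-fold either way in RNASE4 and SLPI and narrow it most for CLU. PIGR was 3.16 and 1.74 times as high in MAT + COL as in MAT in replicates 1 and 2 and 0.933 times in replicate 3, and with the block its value was 0.69 ± 0.24 (0.15 to 1.22). SLPI was lower in MAT + COL in 3 of 3 numbers. No gene of the whole table was called between the EGF groups, 0.0% of 12470 by edgeR without or with the block and 0 by DESeq2; an unadjusted p below 0.05 was reached by 51 genes, by 618 with the block and by 63 in DESeq2.

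How much of a gene's spread followed the group differed between the 7. Of the variance of log2 CPM (counts scaled to library size) over the 9 libraries, the group held 93.1% for RNASE1 and 67.1% for CLU, 43.0% for PIGR, 41.4% for LCN2, 36.5% for RNASE4, 19.4% for WFDC2 and 6.10% for SLPI. The replicate number, which runs across groups, held 77.3% for WFDC2, 51.6% for LCN2 and 45.2% for RNASE4, against 1.88% for RNASE1 and 0.894% for SLPI. For SLPI 93.0% belonged to neither. The medians over all genes tested were 29.5% for the group and 32.4% for the replicate number. WFDC2, LCN2 and RNASE4 thus differed more between replicate numbers than between groups, WFDC2 being lowest and LCN2 highest in replicate 3 of every group.

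**Figure D4:**
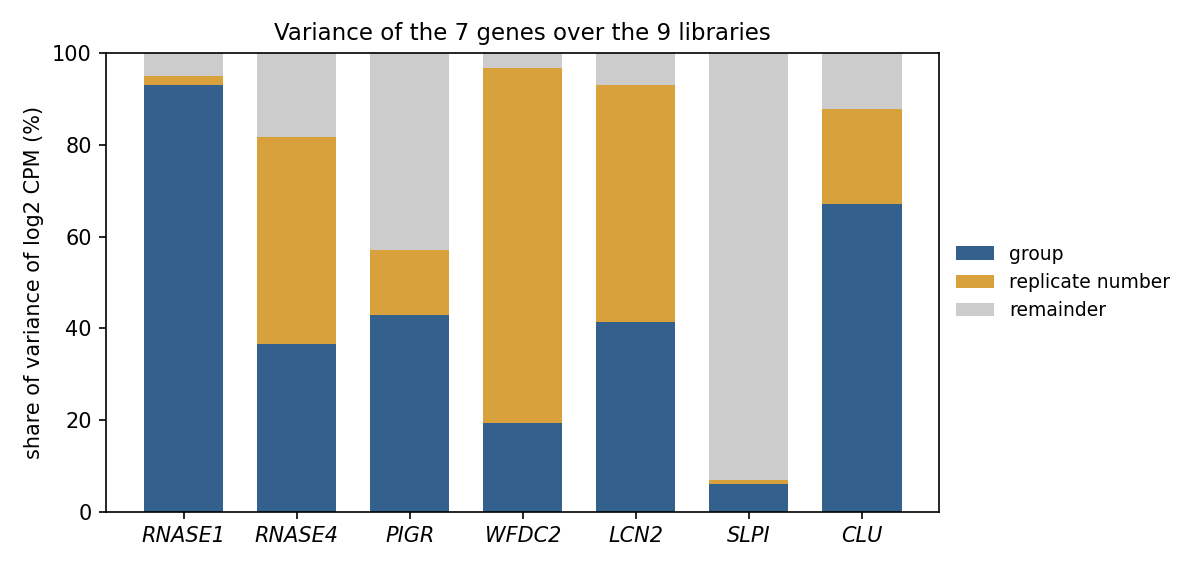
Share of the variance of log2 CPM over the 9 libraries that lies between groups, between replicate numbers and in the remainder (y axis: percent, from 0 to 100; x axis: gene). The group bar is tallest for RNASE1 (93.1%), the replicate number for WFDC2 (77.3%) and the remainder for SLPI (93.0%).

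The genes whose log2 CPM ran closest to each of the 7 over the 9 libraries were sought among 7453 genes with a mean of at least 10 TPM, and are given as a description, since the libraries share groups and replicate numbers. RNASE1 ran with MAK16, OXA1L and PRMT3 (Pearson r of 0.976, 0.971 and 0.971), and CLU with HAGH, SLC35A4 and DRG2 (0.973, 0.969 and 0.960). Among those close to RNASE4 were EGLN1 and FOLR3 (0.965 and 0.960), while WFDC2 ran with URGCP, MFF and MAP3K13 (0.979, 0.973 and 0.964) and LCN2 with RPS6, KARS1 and RAMP2 (0.980, 0.974 and 0.972). PIGR (NUP54, 0.903) and SLPI (PSME3IP1, 0.929) had no partner as close.

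The wider host-defense genes were tested through 9 lists. These lists were chosen with earlier results of these data known, so no enrichment is read from their shares of called genes. Of 231 genes listed, 194 were found and 127 tested in MAT against CYST, where 2 rose and 4 fell (4.72%, beside 1.79% of all genes), and 132 in MAT + COL against CYST, where 1 rose and 3 fell (3.03%, beside 1.49%). With the block, 13 rose and 15 fell in MAT (22.05%, beside 10.6%), and 6 rose and 9 fell in MAT + COL (11.4%, beside 5.26%). The count without the block dropped to 0 without CYST replicate 1 or 2 or MAT replicate 1 or 2, to 1 without MAT replicate 3, and was 9 without CYST replicate 3. In MAT + COL it was 0 without CYST replicate 1 or 2 or MAT + COL replicate 1 or 2. Between the EGF groups 128 were tested and 0 called by edgeR or DESeq2, with 0 at an unadjusted p below 0.05 and 12 with the block.

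Peptidase inhibitors of the epithelium held the largest rise among the listed genes called without the block. CSTA (cystatin A), an inhibitor of cysteine proteases, stood at 0, 0.689 and 1.38 TPM in CYST, 25.8, 30.3 and 25.5 in MAT and 22.4, 33.2 and 29.2 in MAT + COL, and rose in MAT (log2 fold change 5.13 ± 0.79, edgeR adjusted p = 0.0332) and in MAT + COL (5.15 ± 0.79, adjusted p = 0.0375). Over the 9 alternatives other than leaving out a library, its adjusted p stayed at or below 0.0331 in MAT and 0.0368 in MAT + COL. With a library left out, edgeR called CSTA in 1 of 6 fits in each comparison. Its adjusted p then ran up to 0.136 in MAT and 0.160 in MAT + COL. With the block 4 of 15 tested rose in MAT, among them SERPINB1, an inhibitor of neutrophil elastase (159, 153 and 324 TPM in CYST; 456, 384 and 541 in MAT; adjusted p = 0.0224, 0.00831 to 0.185 over the alternatives), and SERPINB5 (adjusted p = 0.0303, 0.00519 to 0.131), while PEBP1 fell (adjusted p = 0.0331, 0.0140 to 0.176). SPINK1, a trypsin inhibitor and the highest of the list, spanned 607 to 15648 TPM and was not called. CST6, next in level, stayed between 2294 and 3359 TPM.

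Antimicrobial proteins moved both ways, and edgeR called none without the block (0 of 19 tested in MAT and 0 of 20 in MAT + COL, with 7 and 9 at an unadjusted p below 0.05 and 4 and 3 called by DESeq2). With the block, 4 rose and 3 fell in MAT. TFF3, a trefoil peptide of mucus, stood at 74.6, 35.6 and 146 TPM in CYST, 415, 807 and 411 in MAT and 413, 1010 and 431 in MAT + COL (log2 fold change with the block 2.77 ± 0.57, adjusted p = 0.0265; 3.84e-05 to 0.0691 over the alternatives). LGALS3, a lectin that binds bacterial glycans, stood at 394, 505 and 668 TPM in CYST, 990, 1700 and 2001 in MAT and 857, 1550 and 2247 in MAT + COL (1.54 ± 0.18, adjusted p = 0.00542; 0.000718 to 0.0840). The other 2 were PGLYRP2, which cleaves peptidoglycan (adjusted p = 0.0216; 0.0100 to 0.163), and S100A12, whose sign turned without MAT replicate 3 (-0.69 ± 1.07). HP (haptoglobin) fell from 24.9, 1.76 and 28.6 TPM in CYST to 0, 0.0916 and 6.96 in MAT (-3.66 ± 0.87, adjusted p = 0.0388; 0.0286 to 0.423), CXCL14 from 59.5, 155 and 172 to 17.1, 72.9 and 47.4 TPM (-1.58 ± 0.24, adjusted p = 0.0120; 0.0120 to 0.258), and CHI3L1 from 45.7, 14.4 and 32.7 to 11.5, 2.72 and 24.8 TPM (-1.58 ± 0.37, adjusted p = 0.0388; 0.0388 to 0.403). In MAT + COL the block called LGALS3 (1.43 ± 0.19), PGLYRP3 (4.31 ± 0.86) and S100A12 (1.45 ± 0.22) higher and HP (-5.23 ± 0.97) lower than in CYST. PGLYRP3 was a low transcript, at 0, 0 and 0.637 TPM in CYST and 0.467, 1.11 and 6.63 in MAT + COL, and its adjusted p of 0.0466 with the block ran from 0.0137 to 0.420 over the alternatives. The sign of S100A12 turned there too without MAT + COL replicate 3 (-0.54 ± 1.10).

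Among chaperones and clusterin receptors, 0 rose and 2 fell of 17 tested in MAT, and with the block 1 rose and 6 fell. Most of those that fell are proteins of the endoplasmic reticulum rather than extracellular chaperones. SDF2L1 stood at 74.8, 96.3 and 62.3 TPM in CYST, 33.7, 34.4 and 32.7 in MAT and 30.1, 23.1 and 33.4 in MAT + COL (log2 fold change -1.21 ± 0.21, edgeR adjusted p = 0.0411, and -1.48 ± 0.24, adjusted p = 0.0383). CRELD2 stood at 98.0, 119 and 99.8 TPM in CYST and 52.6, 29.6 and 44.9 in MAT (-1.33 ± 0.25, adjusted p = 0.0462). Over the alternatives other than leaving out a library, the adjusted p in MAT ran up to 0.0677 for SDF2L1 and 0.0722 for CRELD2. With a library left out, each was called in 0 of 6 fits in MAT. MANF, HSPA5 (BiP) and SERPINH1 fell in MAT with the block (adjusted p = 0.0135, 0.0392 and 0.0226, with ranges over the alternatives of 0.00241 to 0.0691, 0.0142 to 0.139 and 0.00811 to 0.159), as did the secreted hormone STC1 (adjusted p = 0.0199; 0.00789 to 0.195). In MAT + COL the block called SDF2L1 (-1.49 ± 0.25), CRELD2 (-1.42 ± 0.27), MANF (-1.13 ± 0.15) and HSPA5 (-0.76 ± 0.15) lower. LRP1, an endocytic receptor that takes up many extracellular proteins, rose from 6.86, 14.7 and 5.66 TPM in CYST to 18.7, 22.1 and 21.7 in MAT and 25.6, 25.6 and 20.9 in MAT + COL with the block (1.31 ± 0.23, adjusted p = 0.0177, and 1.46 ± 0.23, adjusted p = 0.0303; 0.000983 to 0.171 over the alternatives of both).

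Of complement genes and their regulators, edgeR called 0 of 17 in both comparisons (5 and 3 at an unadjusted p below 0.05; DESeq2 called 0 and 3). With the block, the inhibitor CFI, which cleaves activated complement proteins, fell from 72.9, 77.3 and 8.95 TPM in CYST to 7.01, 15.1 and 1.85 in MAT (log2 fold change -2.67 ± 0.28, adjusted p = 0.00343; 0.000573 to 0.260 over the alternatives) and to 17.0, 24.2 and 3.37 in MAT + COL (-1.80 ± 0.21, adjusted p = 0.0186; 0.00231 to 0.443). In MAT, C1S, a protease of the classical pathway, also fell (adjusted p = 0.0378; 0.0378 to 0.525) and the membrane regulator CD55 rose (adjusted p = 0.0449; 0.0143 to 0.169). CFB, the highest of the list at 220 to 2287 TPM, and CD46 (214 to 456 TPM) were not called. Decorin (DCN), a stromal marker, fell in MAT with the block as well (-1.12 ± 0.23, edgeR adjusted p = 0.0252, and 0.376 without it). It was the only call among the 7 stromal markers tested there (14.3%, beside 10.6% of all genes). The part of stromal cells in the level of C1S was not tested.

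Of the NF-kB, IL-17 and Toll-like receptor signalling genes, which govern several of these proteins in epithelia, edgeR called 0 of 30 in MAT and 0 of 32 in MAT + COL (2 and 3 at an unadjusted p below 0.05; DESeq2 called 1 in each). With the block, IL6R, the interleukin-6 receptor, fell from 18.3, 14.7 and 69.3 TPM in CYST to 1.95, 3.01 and 7.78 in MAT and 3.82, 5.90 and 5.82 in MAT + COL (log2 fold change -2.89 ± 0.30, adjusted p = 0.00352, and -2.45 ± 0.49, adjusted p = 0.0459; 0.000244 to 0.135 over the alternatives of both), with no overlap between the cysts and either EGF group. RELB rose in MAT with the block (1.72 ± 0.32, adjusted p = 0.0198; 0.0198 to 0.541). STAT3 (181 to 280 TPM) and NFKBIA (133 to 284 TPM), the highest of the list, were not called.

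**Figure D5:**
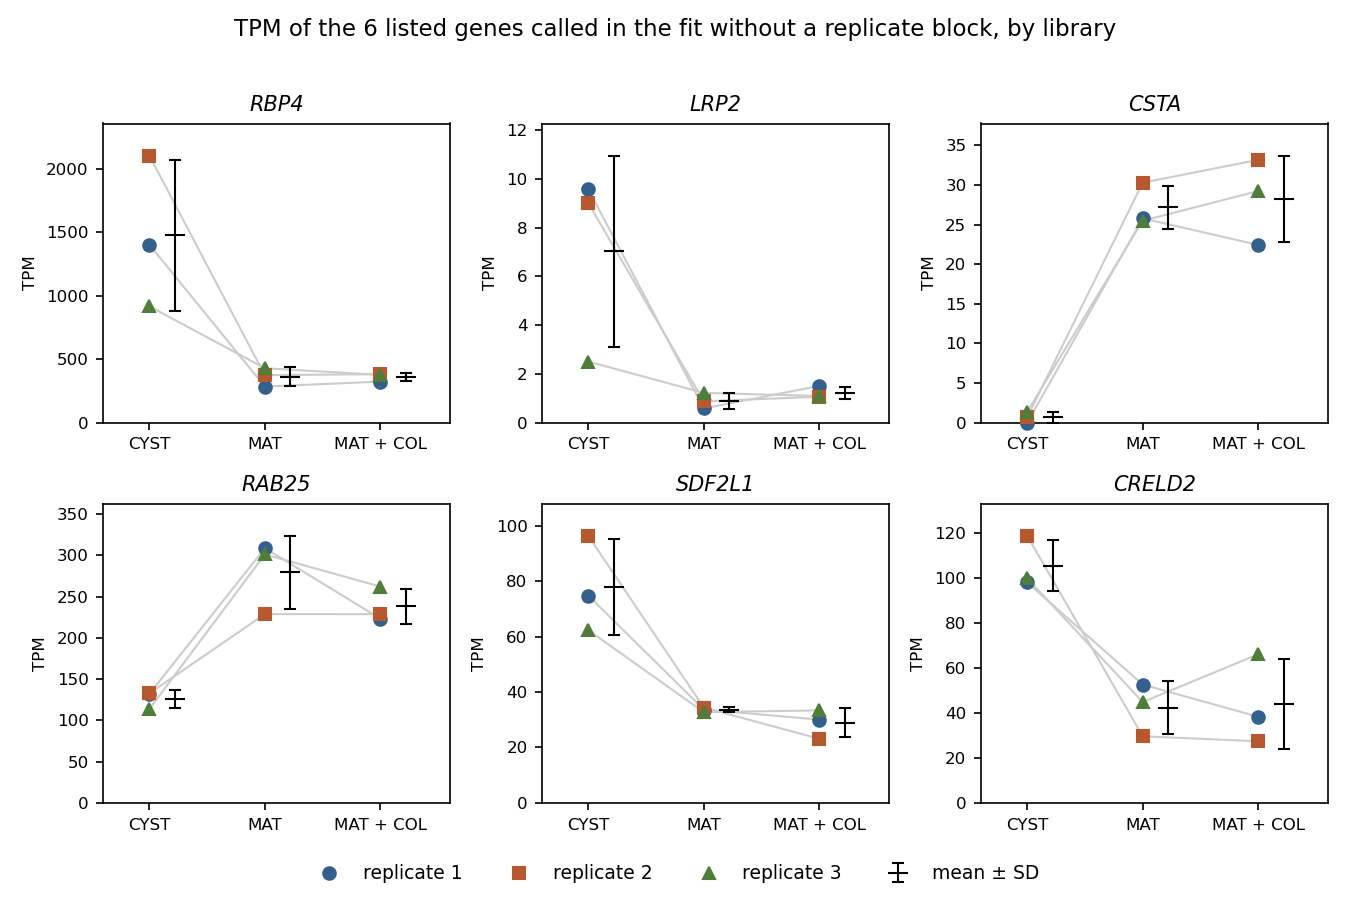
Level of the 6 listed genes called without the replicate block in MAT against CYST (y axes: TPM, from 0, scaled per gene; x axes: the 3 groups). Symbols give replicate numbers, grey lines join equal numbers and black bars give mean ± SD (n = 3). RBP4, LRP2, SDF2L1 and CRELD2 are lower, and CSTA and RAB25 higher, in every EGF library than in any cyst library.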

How the data were processed

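RNA from 9 cultures was prepared with SMART-Seq HT PLUS, which does not mark strand. Reads were trimmed and mapped to ARS-UCD2.0 in CLC Genomics Workbench by the authors, who deposited raw counts and TPM for each gene and library. The annotation release and the handling of reads that match several genes are not given in the sources used here. Groups came from the labels.

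Counts were fitted in R 4.3.3 with edgeR 4.0.16 by its quasi-likelihood test (filterByExpr, minimum count of 10; TMM), with 6 libraries in each comparison, and p-values were adjusted by Benjamini-Hochberg over all genes tested. A gene was called at an adjusted p below 0.05, and "rose" or "fell" is used of called genes. Same-numbered libraries deviated together from their group means. Correlations over genes were 0.329, 0.437 and 0.396 for MAT and CYST, and 0.278, 0.350 and 0.347 for MAT + COL and CYST. Between the EGF groups they were 0.471, 0.613 and 0.687. The replicate number was therefore used as a block, as if it paired the libraries. The labels do not say what a number shares, and the deposited column names carry partly different numbers. The blocked fit is printed where it changed a call, and also for some genes whose call it did not change. Fold changes carry SE and 95% intervals, which do not correct for how the genes were picked. The edgeR SE was derived from the log2 fold change and the F statistic of its test. The 95% intervals are symmetric around the fold change, so they are rough where counts are near 0. Log2 CPM used a prior count of 2.

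The 7 genes and the lists were chosen with earlier results of these data known. Named from each list were the genes called without or with the block, up to 3 highest and 3 lowest by log2 fold change, and the 2 highest in mean TPM; the RNase, WAP domain and lipocalin relatives were named throughout. The marker DCN was named after its values were seen. Alternatives were DESeq2 1.42.0, RLE size factors, no filter, the replicate block, and all 9 libraries without or with the block. Others were limma 3.58.1 on log2(TPM + 1), with or without the filter, or on log2(TPM + 0.1), and leaving out each library. Ranges of adjusted p over the alternatives exclude the last. They include the blocked fits, so a range can hold the blocked p printed beside it. Tests were tried on simulated data. Gene positions of RefSeq are those of its ARS-UCD2.0 annotation. Reads carry no molecular identifiers. Of the genes closest to RNASE4, 1 is not reported here.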

Additional observations from a re-analysis of the deposited data

How the results depend on the processing

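Over the genes, comparisons and alternatives, 285 further log2 fold changes of the 7 genes were computed. Of these, 273 moved by less than 1 SD of the replicates and 14 changed sign, of which the 6 in comparisons with CYST were all SLPI. RNASE1 was called in 9 of 9 alternatives in both comparisons with CYST, but, with a library left out and so fewer samples, in 2 of 6 fits for MAT and 1 of 6 for MAT + COL. Main counts of called genes for MAT were 6 listed genes and 1 of the 7, and for MAT + COL 4 and 1. For MAT the listed genes numbered 18 by DESeq2, 28 with the replicate block, 10 with all 9 libraries, 39 with all 9 libraries and the block (chosen after seeing the data) and 1 by limma without a filter, and 0 to 9 with a library left out. For MAT + COL they numbered 22, 15, 11, 38 and 1 in the same order, 7 by limma with either pseudocount, and 0 to 4 with a library left out. Of the 7 genes, MAT gave 2 by DESeq2 (RNASE1 and CLU), 3 with the block (RNASE1, RNASE4 and CLU) and 3 with all 9 libraries and the block (RNASE1 and CLU lower, WFDC2 higher), and MAT + COL gave 2 by DESeq2 (RNASE1 and CLU) and 3 with all 9 libraries and the block (RNASE1, LCN2 and CLU), with 0 to 1 in both when a library was left out. The cause of these differences was not tested. MAT + COL against MAT gave 0 under each alternative. The block changed no other call of a gene named here than those printed. With a library left out, the log2 fold change in MAT ran from -0.69 to 3.97 for S100A12 and from -1.42 to 4.71 for WFDC18, reversed without MAT replicate 3, and in MAT + COL from -0.54 to 3.43 for S100A12, reversed without MAT + COL replicate 3. Depth limits the values of LCN2 and SLPI, with 1 to 91 and 2 to 111 counts in a library.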
